A study of Mus musculus with 16 samples.

Results

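Hearts of mouse embryos that had lost 1 Ing4 allele and both Ing5 alleles were compared with hearts that had lost both Ing5 alleles and kept both Ing4 alleles. All were taken at embryonic day 10.5. The 2 genotypes are written Ing4+/- Ing5-/- (4 hearts) and Ing5-/- (4 hearts, Ing4+/+), and these 8 of the 16 libraries were chosen by genotype label alone. Both sides lack Ing5 by label, so the comparison asks what the loss of 1 Ing4 allele did where Ing5 was already missing. The other 8 libraries, 4 Ing4+/- hearts with both Ing5 alleles and 4 wild-type hearts, entered the same model and give the loss of the same allele where Ing5 was present. Which part of each gene was deleted, the strain and the embryos' sex are not given in the labels.

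ING4 and ING5 are closely related proteins with a PHD finger that binds histone H3 trimethylated at lysine 4, a mark of active promoters. Both are subunits of complexes built on the MYST acetyltransferase KAT7 (HBO1), and ING5 is also found with KAT6A and KAT6B, so they bring histone acetylation to promoters. At this stage the epicardium, a sheet of cells that grows over the heart from the proepicardium, has recently formed, and the ventricle is made mainly of cardiomyocytes lined by endocardium.

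Each library held between 24141389 and 35664331 counted reads among the 8 hearts compared, and 15785 genes were tested. Heart muscle genes were abundant in all 8, with Myh6 at 3294 to 4661, Tnnt2 at 1510 to 2466 and Nkx2-5 at 190 to 419 CPM (reads scaled to library size). The Ing4+/- Ing5-/- hearts came from litters 1, 4, 6 and 7 and the Ing5-/- hearts from litters 1, 1, 2 and 7, so only litters 1 and 7 held both genotypes. The library labelled Ing5-/- 1 stood apart: its cardiomyocyte genes summed to 33450 CPM against 44010 to 53710 CPM in the other 7 hearts, and its epicardial genes to 2914 CPM against 1231 to 1599 CPM. Ing4+/- Ing5-/- 2 stood apart by its haemoglobin genes, which took 4.68% of its reads. The main results are therefore given with and without Ing5-/- 1. Where a gene or list has no second value, its value is with all hearts. Among the hearts with Ing5, Ing4+/- 4 stood farthest from the rest, at 87.4 on the first principal component (25.3% of the variance) against -35.3 to 10.4 for the 15 other libraries. Ing4+/- Ing5-/- 2 and Ing5-/- 4 were the hearts with a high level of Xist (595 and 400 CPM), the RNA made from the inactive X chromosome, and the other 6 expressed the Y-linked gene Ddx3y at 53.4 to 67.3 CPM, so each genotype had 1 Xist-high heart. Litter 7 held the Xist-high Ing5-/- 4 (3.24% haemoglobin reads) and Ing4+/- Ing5-/- 4, which expressed Ddx3y (0.768%). Values within litter 7 therefore cannot tell genotype from these differences.

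The targeted gene was examined first. Ing4 (gene ID 28019, chr6:125039848-125049265, GRCm38) had 35.7, 36.1, 32.5 and 32.9 CPM in Ing4+/- Ing5-/- hearts, against 60.7, 52.0, 47.8 and 43.5 CPM in Ing5-/- hearts. Every Ing4+/- Ing5-/- heart lay below every Ing5-/- heart, and Ing5-/- 1 was the highest of the 8. The log2 fold change was -0.57 ± 0.12 (SE) and did not pass the threshold of 0.05 in edgeR's quasi-likelihood test with Benjamini-Hochberg adjustment (adjusted p = 0.348), while DESeq2 gave an adjusted p of 0.0163. Without Ing5-/- 1 it was -0.48 ± 0.12 (edgeR adjusted p = 0.709, DESeq2 0.111). Ing4 passed in edgeR when wild-type 2 was left out of the shared model (adjusted p = 0.0436). Ing4+/- hearts with Ing5 had 32.0 to 36.3 CPM and wild-type hearts 28.2 to 44.4 CPM, and the value of 28.2 CPM belonged to wild-type 2. Ing5 reads, which both genotypes still gave, were at 21.0 ± 2.75 CPM in Ing4+/- Ing5-/- hearts and 23.5 ± 4.48 CPM in Ing5-/- hearts (SD, n = 4 each). Ing5-/- 1 had 29.3 CPM of Ing5, inside the wild-type range of 28.9 to 36.9 CPM. Counts were summed over whole genes, so reads from outside a deleted part cannot be told apart from intact transcripts.

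Dpp6 was the only gene of the 15785 that passed the threshold (0.00634% of the genes tested), and it rose 3.25-fold. It encodes a dipeptidyl peptidase-like protein without enzyme activity that binds Kv4 potassium channels as an auxiliary subunit and speeds their gating. Dpp6 (gene ID 13483, chr5:26817357-27727500, GRCm38) had 9.59, 18.9, 11.7 and 11.7 CPM in Ing4+/- Ing5-/- hearts, against 3.58, 3.63, 5.19 and 3.59 CPM in Ing5-/- hearts. The groups did not overlap, and the lowest Ing4+/- Ing5-/- heart stood well above the highest Ing5-/- heart. The means were 12.98 ± 4.06 CPM in Ing4+/- Ing5-/- hearts and 4.00 ± 0.80 CPM in Ing5-/- hearts (SD, n = 4 each), and the log2 fold change was 1.70 ± 0.20 (edgeR adjusted p = 0.00197). Without Ing5-/- 1 the gene was again the only one called, of 15877 tested (0.0063%), at 1.65 ± 0.22 (adjusted p = 0.0117). Within litter 1 the log2 ratio of the Ing4+/- Ing5-/- heart to the mean of the 2 Ing5-/- hearts was 1.39, and within litter 7 the ratio of the single hearts was 1.68. With litter as a block the log2 fold change was 1.66 and the call was lost (adjusted p = 0.219). The call was lost too when the model held only the 2 genotypes compared (log2 fold change 1.70, adjusted p = 0.248). Without Ing4+/- Ing5-/- 2, which had the highest level, the log2 fold change was 1.47 (adjusted p = 0.00499).

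Loss of the same allele in the presence of Ing5 left Dpp6 at overlapping levels. Dpp6 had 2.37, 2.42, 2.17 and 3.09 CPM in Ing4+/- hearts, against 2.78, 2.31, 2.88 and 2.34 CPM in wild-type hearts. The log2 fold change was -0.04 ± 0.22 (edgeR adjusted p = 0.995). All 4 Ing5-/- hearts were above all 8 hearts that kept Ing5, and the Ing4+/- Ing5-/- hearts were the highest of the 4 genotypes. The difference between the log2 fold changes without and with Ing5 was 1.74 ± 0.30, which missed the threshold in edgeR (adjusted p = 0.136) and passed in DESeq2 (adjusted p = 0.000401).

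**Figure D1:**
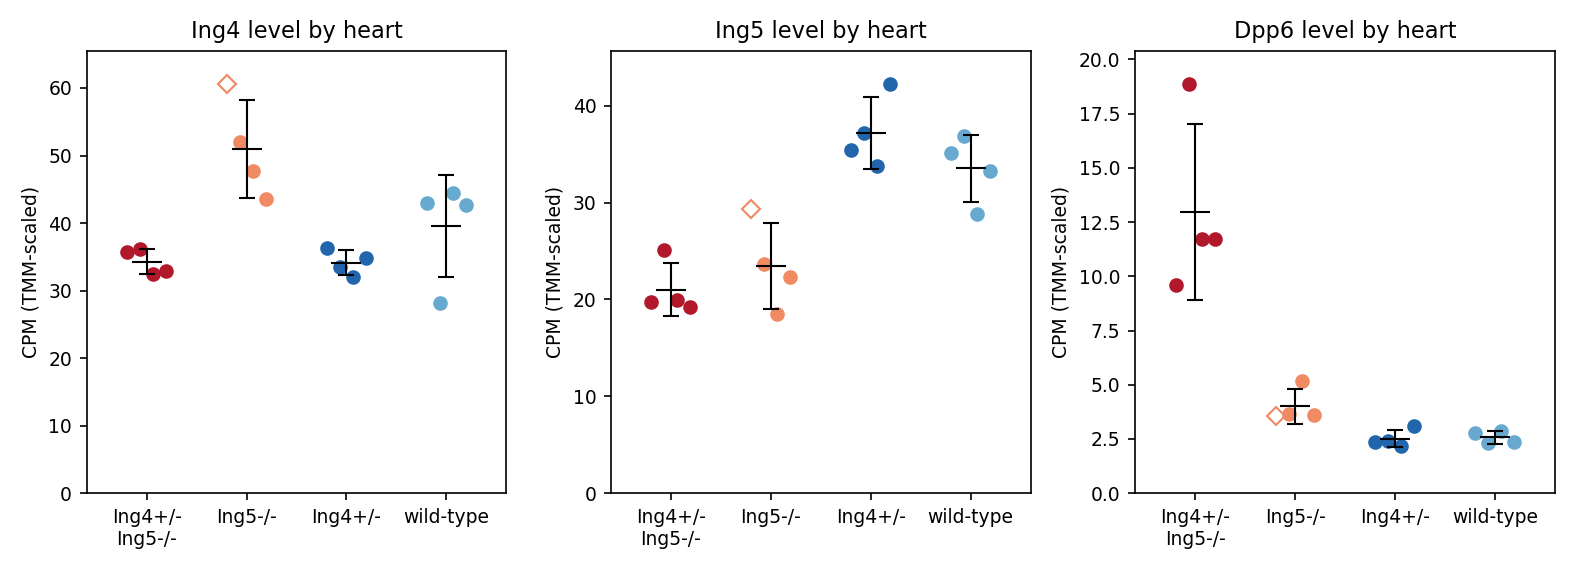
Levels of Ing4, Ing5 and Dpp6 in CPM (vertical axes, from 0) in each of the 16 hearts by genotype. Points are hearts, the open diamond is Ing5-/- 1, and black marks give the mean and SD of 4 hearts. The Ing4+/- Ing5-/- hearts lay between 9.59 and 18.9 CPM for Dpp6 and the Ing5-/- hearts between 3.58 and 5.19 CPM.

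Dpp6 has several annotated starts, and the deposited counts are sums over the whole gene, so they do not tell which start was used. The RefSeq table of starts (GRCm38.p6) held 3 windows for Dpp6, each from 250 bases before to 50 bases after a start on the plus strand. They are shown because ING proteins bind a promoter mark and Dpp6 is the gene that was called. Capitals mark the dinucleotide CG, the only motif searched, which reads the same on both strands. Window 1 (chr5:26817107-26817406) held 10 CG, window 2 (chr5:27048949-27049248) held 6 and window 3 (chr5:27261685-27261984) held 16. Across all 32851 windows of the table the median was 7, 94.6% held at least 1 CG, and 43.5%, 56.4% and 33.0% held at least as many as windows 1, 2 and 3. The 3 starts therefore lay on both sides of the median of all promoters, with the start farthest along the gene the richest in CG.
Dpp6 window 1: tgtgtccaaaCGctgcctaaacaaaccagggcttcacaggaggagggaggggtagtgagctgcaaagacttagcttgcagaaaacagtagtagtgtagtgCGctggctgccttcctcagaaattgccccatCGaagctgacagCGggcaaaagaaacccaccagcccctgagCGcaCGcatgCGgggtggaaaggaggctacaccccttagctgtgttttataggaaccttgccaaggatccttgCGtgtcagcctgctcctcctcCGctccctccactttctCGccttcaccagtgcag
Dpp6 window 2: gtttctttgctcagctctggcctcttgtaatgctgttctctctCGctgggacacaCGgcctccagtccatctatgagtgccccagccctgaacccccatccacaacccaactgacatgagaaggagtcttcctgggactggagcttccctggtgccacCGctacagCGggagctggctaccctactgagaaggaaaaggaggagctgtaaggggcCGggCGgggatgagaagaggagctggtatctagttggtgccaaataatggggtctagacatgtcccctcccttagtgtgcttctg
Dpp6 window 3: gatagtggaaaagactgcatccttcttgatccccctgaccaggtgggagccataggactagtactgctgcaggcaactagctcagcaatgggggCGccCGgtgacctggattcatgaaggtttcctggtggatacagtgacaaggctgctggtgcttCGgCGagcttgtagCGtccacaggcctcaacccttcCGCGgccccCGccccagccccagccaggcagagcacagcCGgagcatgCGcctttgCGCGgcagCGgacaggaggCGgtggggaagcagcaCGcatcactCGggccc

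Genes next in rank did not pass the threshold in edgeR and are given as values. Before adjustment, 423 genes had a p under 0.05 and were higher in Ing4+/- Ing5-/- hearts (2.68%), and 641 were lower (4.06%), 1064 in all (6.74%). Without Ing5-/- 1 these were 320 higher (2.02%) and 349 lower (2.2%), 669 in all (4.21%). The groups did not overlap for 473 genes (3%), of which 214 were higher (1.36%) and 259 lower (1.64%). With Ing5-/- 1 left out, 844 did not overlap (5.32%), 427 higher (2.69%) and 417 lower (2.63%). DESeq2 called 19 genes (0.12%), 12 higher and 7 lower, and 8 genes without Ing5-/- 1 (0.0504%), of which 6 were in both sets, while limma-voom called 1. The plot of all genes by fold change and p shows Dpp6 alone above the others.

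**Figure D2:**
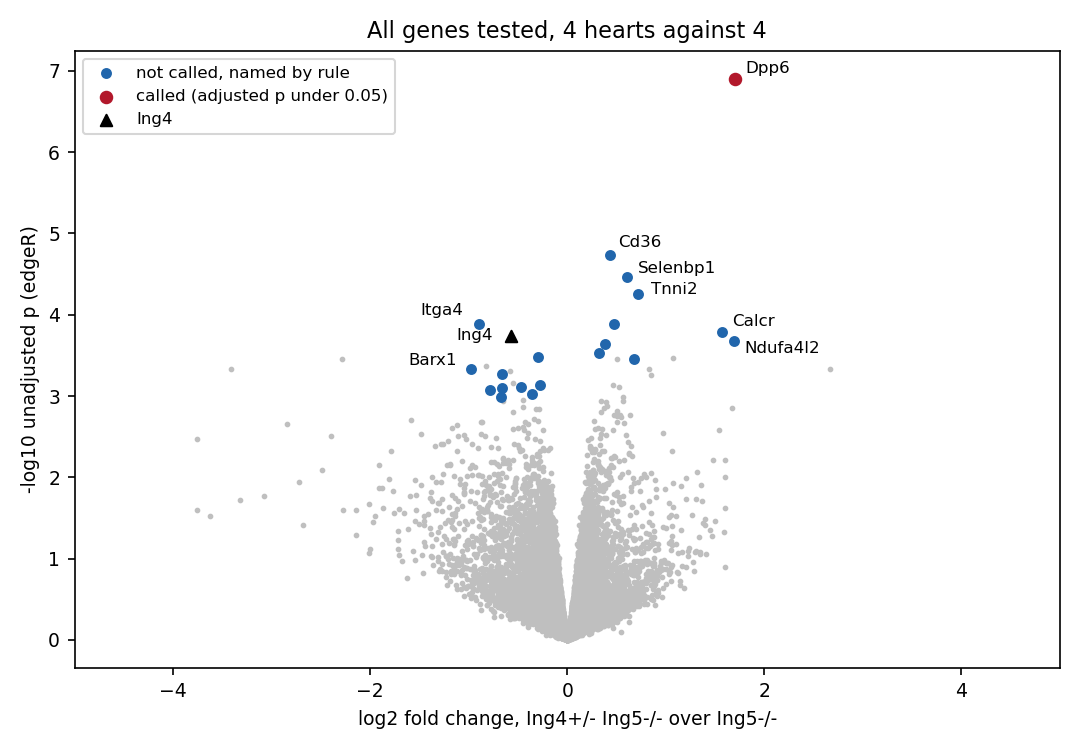
Each point is 1 of the 15785 genes tested, by log2 fold change of Ing4+/- Ing5-/- over Ing5-/- hearts (horizontal) and -log10 of the unadjusted edgeR p (vertical). Dpp6 (red) was the only gene called, and the blue points are the 19 other genes named by the ranking rule. Ing4 is a black triangle.

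Among the 10 genes highest in rank on the higher side, Dpp6 was called and the other 9 had edgeR adjusted p-values of 0.145 to 0.348. DESeq2 called 9 of the 10, Ndufa4l2 being the exception (adjusted p = 0.0696). Cd36 (chr5:17781690-17888959), a fatty acid transporter and scavenger receptor, had 67.8, 75.8, 66.8 and 72.7 CPM in Ing4+/- Ing5-/- hearts, against 55.5, 56.8, 51.4 and 46.2 CPM in Ing5-/- hearts. The log2 fold change of Cd36 was 0.43 ± 0.07 (edgeR adjusted p = 0.145, DESeq2 0.00138) and 0.46 ± 0.08 without Ing5-/- 1. Cd36 is made by endothelial cells and by heart muscle, and its groups did not overlap. It lies on the same chromosome as Dpp6. Values in parentheses after levels are log2 fold changes ± SE. Selenbp1 (chr3:94933083-94944758), a selenium-binding protein with methanethiol oxidase activity, had 35.6, 41.0, 29.9 and 28.0 CPM in Ing4+/- Ing5-/- hearts, against 18.6, 21.9, 24.1 and 23.7 CPM in Ing5-/- hearts (0.61 ± 0.11, edgeR adjusted p = 0.180, DESeq2 0.00138). Tnni2 (chr7:142441816-142444410), the troponin I of fast skeletal muscle, had 80.2, 69.5, 74.9 and 60.6 CPM in Ing4+/- Ing5-/- hearts, against 40.9, 44.9, 54.8 and 32.7 CPM in Ing5-/- hearts (0.72 ± 0.14, edgeR adjusted p = 0.217, DESeq2 0.00138). Tnni2 passed in edgeR when Ing5-/- 3, the highest of its group, was left out (0.85, adjusted p = 0.0494).

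Ndufa4l2 and Cox4i2 encode mitochondrial proteins of the respiratory chain that are known to be induced by low oxygen. Ndufa4l2 (chr10:127509274-127517154) had 13.01, 21.3, 11.5 and 18.9 CPM in Ing4+/- Ing5-/- hearts, against 3.22, 5.71, 8.09 and 3.04 CPM in Ing5-/- hearts, with a log2 fold change of 1.70 ± 0.37 as large as that of Dpp6 and an edgeR adjusted p of 0.348. Its hearts were more spread within the Ing5-/- group than those of Dpp6. Cox4i2 had 14.9, 18.4, 13.01 and 17.9 CPM in Ing4+/- Ing5-/- hearts, against 9.37, 10.7, 12.3 and 7.75 CPM in Ing5-/- hearts (0.68 ± 0.15, edgeR adjusted p = 0.348, DESeq2 0.0334). In hearts with Ing5, Ndufa4l2 was at 1.16 to 3.62 CPM in Ing4+/- and 1.21 to 3.59 CPM in wild-type hearts, and Cox4i2 was at 4.54 to 5.83 CPM in Ing4+/- and 4.47 to 6.04 CPM in wild-type hearts. Both genes were thus highest in Ing4+/- Ing5-/- hearts, and Ing4+/- and wild-type hearts overlapped, as for Dpp6, but for Ndufa4l2 the lowest Ing5-/- hearts lay within the range of the hearts that kept Ing5. Tnni2 followed the same order, at 23.9 to 27.8 CPM in Ing4+/- and 24.6 to 36.2 CPM in wild-type hearts, although wild-type 2 lay above Ing5-/- 4.

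Calcr (chr6:3685678-3764713), the calcitonin receptor, had 4.47, 6.31, 8.25 and 5.84 CPM in Ing4+/- Ing5-/- hearts, against 1.66, 1.31, 2.30 and 3.10 CPM in Ing5-/- hearts (log2 fold change 1.57 ± 0.33, edgeR adjusted p = 0.348, DESeq2 0.00501). Unlike Dpp6, it was at 1.00 to 3.57 CPM in Ing4+/- and 1.83 to 3.25 CPM in wild-type hearts, which overlaps the range of the Ing5-/- hearts. Serpinb6b, an intracellular serine protease inhibitor with close paralogs whose reads could have been shared, averaged 40.2 ± 3.92 CPM in Ing4+/- Ing5-/- hearts and 28.9 ± 2.19 CPM in Ing5-/- hearts. Clybl and Aldh6a1 are enzymes of the mitochondrial matrix, Clybl in the breakdown of citramalyl-CoA and Aldh6a1 in that of valine. Clybl averaged 45.8 ± 1.34 CPM in Ing4+/- Ing5-/- hearts and 35.2 ± 3.95 CPM in Ing5-/- hearts. Aldh6a1 averaged 43.3 ± 2.62 CPM in Ing4+/- Ing5-/- hearts and 34.8 ± 2.61 CPM in Ing5-/- hearts, but its wild-type range of 38.2 to 42.5 CPM lay closer to the hearts with 3 alleles lost.

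On the lower side the 10 genes highest in the same ranking had edgeR adjusted p-values of 0.345 to 0.468, and none was called by edgeR. DESeq2 called 2 of them, Tenm4 (adjusted p = 0.0334) and Lsm6 (0.0340). Ing4 and the other lower genes that DESeq2 called did not meet the conditions of the ranking, so these 10 are not the lower genes with the smallest p. Itga4 (chr2:79255426-79333114), the alpha4 integrin that epicardial cells need to stay attached to the heart, had 76.3, 72.8, 67.1 and 92.4 CPM in Ing4+/- Ing5-/- hearts, against 224, 106, 139 and 104 CPM in Ing5-/- hearts. Its log2 fold change was -0.89 ± 0.18 (edgeR adjusted p = 0.345, DESeq2 0.0579). Ing5-/- 1 held the value of 224 CPM, and without it the fold change was -0.59 ± 0.12 (edgeR adjusted p = 0.584, DESeq2 0.00763). Ing4+/- and wild-type hearts had 104 to 143 and 114 to 136 CPM of Itga4, so the Ing4+/- Ing5-/- hearts were below all 12 others. Itgb8, the beta8 integrin that activates TGF-beta, had 3.49 to 4.63 CPM in Ing4+/- Ing5-/- hearts, against 5.17 to 10.1 CPM in Ing5-/- hearts (-0.79 ± 0.20).

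Barx1 (chr13:48663036-48666507), a homeobox transcription factor of mesenchyme, had 1.29, 1.41, 1.60 and 1.75 CPM in Ing4+/- Ing5-/- hearts, against 3.77, 2.42, 3.05 and 2.70 CPM in Ing5-/- hearts (-0.98 ± 0.23). It ran the other way in hearts with Ing5, at 2.58 to 4.88 CPM in Ing4+/- and 1.73 to 2.32 CPM in wild-type hearts (0.89 ± 0.23). The difference between the Barx1 fold changes was -1.88 ± 0.32 (edgeR adjusted p = 0.136, DESeq2 0.000525). Map2, Hap1 and Bex2 are genes with known roles in neurons, and their log2 fold changes were -0.66 ± 0.16, -0.67 ± 0.17 and -0.47 ± 0.12. Tenm4, a teneurin of the cell surface, was at -0.66 ± 0.16 and Myo5a, a motor that carries vesicles along actin, at -0.28 ± 0.07. Lsm6 and Lsm3, subunits of the ring that binds U6 RNA and of the ring that binds decaying mRNA, were at -0.29 ± 0.07 and -0.36 ± 0.09.

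All 20 of these genes kept their direction without Ing5-/- 1, but they were chosen because the groups did not overlap, which fixes that. The plot of fold changes with and without Ing5-/- 1 shows the move of each gene: Itga4 moved most of the 20, and Serpinb6b, Hap1 and Lsm6 kept nearly the same value. Ranking without that heart added Laptm5, a lysosomal protein of blood cells (0.75 ± 0.18), and Rnf17, a tudor domain protein known from the germline (0.67 ± 0.16), on the higher side. On the lower side it added Myo16 (-0.51 ± 0.11), the taurine transporter Slc6a6 (-0.39 ± 0.09), Scube1 (-0.35 ± 0.09), Igfbpl1 (-0.44 ± 0.11) and Lgi2 (-0.41 ± 0.10). None of these 7 passed in edgeR (adjusted p = 0.709 to 0.799), and Myo16 passed in DESeq2 (0.0376).

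**Figure D3:**
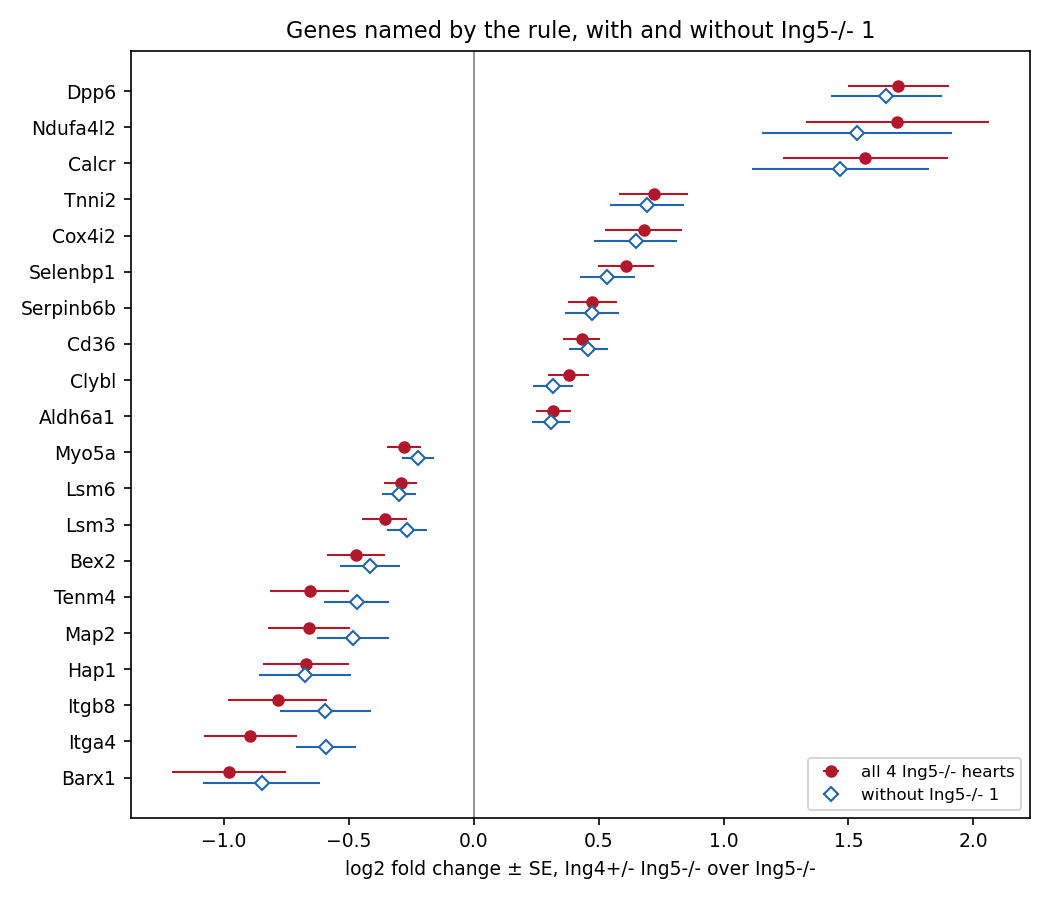
Log2 fold change of Ing4+/- Ing5-/- over Ing5-/- hearts (horizontal, bars give the SE) for the 10 genes in each direction (vertical) named by the ranking rule. Filled points are with all 4 Ing5-/- hearts and open points without Ing5-/- 1. Itga4 stood at -0.89 with all hearts and -0.59 without Ing5-/- 1, and Dpp6 at 1.70 and 1.65.

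The 20 genes were then read in the 8 hearts that kept Ing5, which are not part of the contrast that ranked them. Of the 10 that were higher in Ing4+/- Ing5-/- hearts, 3 were higher and 7 lower in Ing4+/- than in wild-type hearts, with log2 fold changes of -0.16 to 0.15 and a median of -0.06. Of the 10 that were lower, 6 were higher and 4 lower in Ing4+/- hearts, with values of -0.13 to 0.89 and a median of 0.03. Ing4+/- against wild-type hearts gave 0 genes called in edgeR, 748 genes at an unadjusted p under 0.05 (4.74%, with 2.53% higher and 2.21% lower) and 3 genes called by DESeq2 (0.019%). The interaction, which tests whether the allele acted differently without Ing5, gave 0 genes in edgeR, 952 at an unadjusted p under 0.05 (6.03%, with 2.48% positive and 3.55% negative) and 7 by DESeq2 (0.0443%), Dpp6 and Barx1 among them. Shisa3, a protein that holds back WNT and FGF receptors in the cell, had an interaction of -5.59 ± 1.06 (edgeR adjusted p = 0.231, DESeq2 0.000242). DESeq2 also called Shisa3 in Ing4+/- Ing5-/- against Ing5-/- hearts (log2 fold change -3.48, adjusted p = 0.00835), where edgeR gave an adjusted p of 0.353. Shisa3 was at 0 to 0.271 CPM in Ing4+/- Ing5-/- hearts, against 0.397 to 2.83 CPM in Ing5-/- hearts, and at 0.458 to 4.62 CPM in Ing4+/-, against 0.311 to 0.881 CPM in wild-type hearts. Cdk2ap1, which binds the cell cycle kinase CDK2, had 27.8 to 31.6 CPM in Ing4+/- Ing5-/- and 30.5 to 34.2 CPM in Ing5-/- hearts, against 31.8 to 41.9 CPM in Ing4+/- and 25.0 to 29.1 CPM in wild-type hearts (interaction -0.64 ± 0.12, edgeR adjusted p = 0.231, DESeq2 0.00461). Without Ing4+/- 4, 517 genes had an unadjusted p under 0.05 for Ing4+/- against wild-type hearts (3.23% of 15983) and 875 for the interaction (5.47%). The interaction was then 1.85 ± 0.30 for Dpp6 (edgeR adjusted p = 0.0925) and -1.71 ± 0.30 for Barx1 (0.143). Without that heart, Cdk2ap1 passed for the interaction (-0.72, adjusted p = 0.0356).

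No gene close to Ing4 was called. Of 162 genes tested within 10 Mb of Ing4, 0 passed in edgeR and the median log2 fold change was 0.00. An unadjusted p under 0.05 was found for 9 (5.56%, against 6.74% of all genes), 6 higher and 3 lower. Without Ing5-/- 1, 0 passed, and 8 were higher and 1 lower with such a p (5.56%, against 4.21% of all genes). Within 5 Mb (103 genes), 5 were higher and 2 lower with such a p with all hearts. Without Ing5-/- 1, 7 were higher and 0 lower there, and the share was 6.8% in both fits.

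Gene lists for cell types and processes were described next by their members, and none of their members was called by edgeR with all hearts or without Ing5-/- 1. DESeq2 called Ing4 with all hearts and the epicardial gene Itga4 without Ing5-/- 1, with the adjusted p-values given above. The median over all 15785 genes was 0.00 in both. In bulk tissue, fewer cells of a type and less RNA per cell cannot be told apart. The plot of list medians places most lists within 0.1 of 0 and shows where Ing5-/- 1 sets the value.

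**Figure D4:**
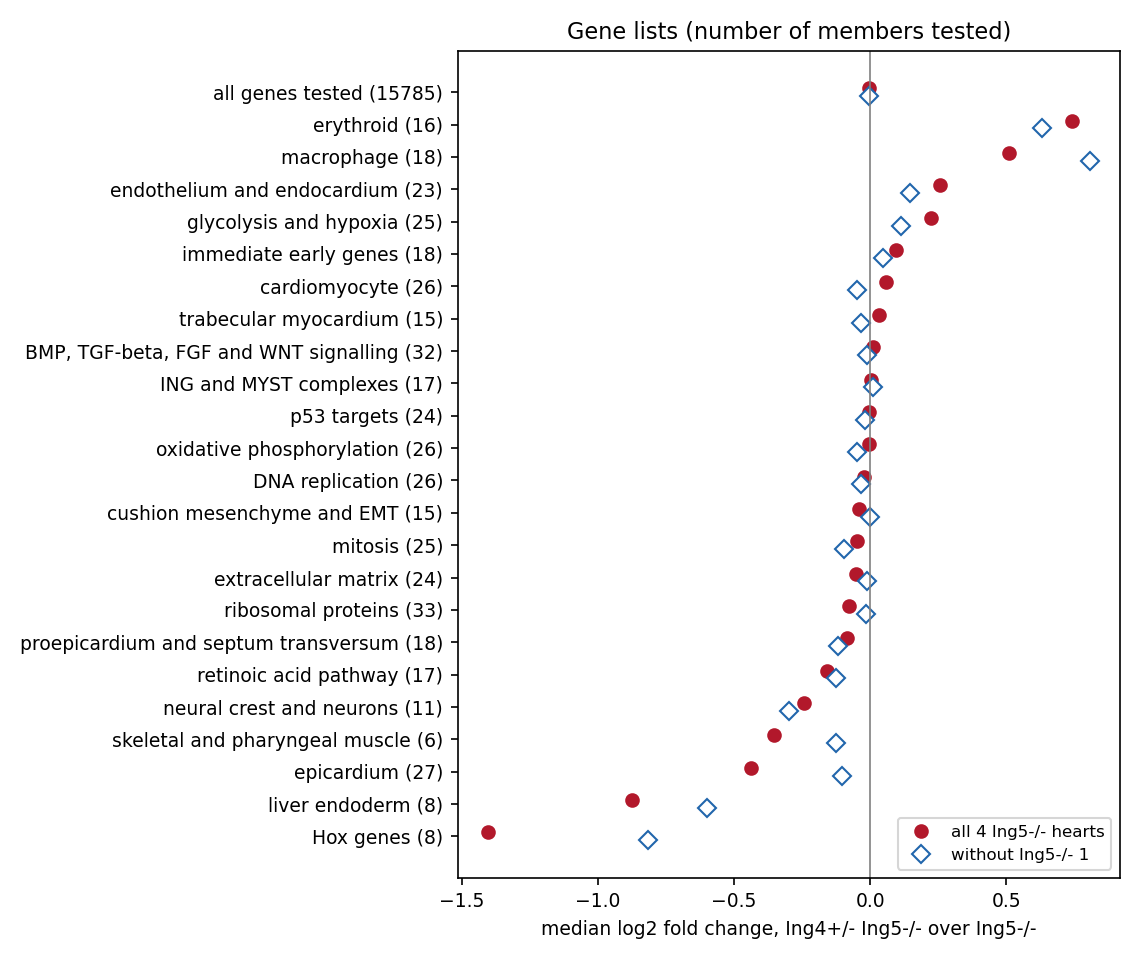
Median log2 fold change of Ing4+/- Ing5-/- over Ing5-/- hearts (horizontal) for each gene list (vertical, with the number of members tested), with all 4 Ing5-/- hearts (filled) and without Ing5-/- 1 (open). The epicardial list stood at -0.44 with all hearts and -0.10 without Ing5-/- 1, and the Hox list at -1.40 and -0.82.

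Most epicardial genes were lower in Ing4+/- Ing5-/- hearts, and the size of the difference rested on Ing5-/- 1. Of 27 members tested of 28 listed, 23 were lower and 4 higher, 12 had an unadjusted p under 0.05 and were lower (4.06% of all genes were), and the median was -0.44. Without Ing5-/- 1, 18 were lower, 4 of them with such a p (2.2% of all genes), and the median was -0.10. Without Ing5-/- 4 it was -0.69. Their summed level was 1388, 1231, 1422 and 1406 CPM in Ing4+/- Ing5-/- hearts, against 2914, 1599, 1598 and 1348 CPM in Ing5-/- hearts, and Ing5-/- 4 lay within the Ing4+/- Ing5-/- range. Within litter 1, which holds Ing5-/- 1, the median was -0.96 and within litter 7 it was 0.19. Wt1, a zinc finger factor of the epicardium, had 58.0, 51.5, 61.0 and 58.3 CPM in Ing4+/- Ing5-/- hearts, against 150, 67.8, 68.6 and 48.5 CPM in Ing5-/- hearts. Its log2 fold change was -0.55 ± 0.22 (edgeR adjusted p = 0.692), and -0.11 ± 0.10 without Ing5-/- 1. The groups overlapped for Wt1 through Ing5-/- 4. Tbx18, Tcf21 and Upk3b, other epicardial genes, had fold changes of -0.72 ± 0.25, -0.82 ± 0.30 and -0.78 ± 0.31, and -0.19 ± 0.11, -0.26 ± 0.19 and -0.20 ± 0.19 without Ing5-/- 1. Aldh1a2, which makes retinoic acid in the epicardium, had -0.71 ± 0.36, and 0.00 ± 0.24 without that heart. Itga4 was the only member of the 27 whose groups did not overlap with all hearts, a share near that of all genes (3%, with 1.64% lower). Podxl, a sialomucin of the mesothelial surface, had 338 to 363 CPM in Ing4+/- Ing5-/- hearts, against 350 to 609 CPM in Ing5-/- hearts. Its log2 fold change was -0.36 ± 0.11, and -0.19 ± 0.07 without Ing5-/- 1, which held the value of 609 CPM.

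Tissue that borders the heart was read through other lists. All 8 Hox genes tested of 21 listed were lower, with a median of -1.40, and -0.82 without Ing5-/- 1. With all hearts 7 of them had an unadjusted p under 0.05 and were lower (4.06% of all genes were). Without Ing5-/- 1, 0 had such a p (2.2% of all genes). Their summed level was 12.5, 11.4, 11.3 and 17.2 CPM in Ing4+/- Ing5-/- hearts, against 54.3, 16.7, 20.8 and 19.1 CPM in Ing5-/- hearts. The Ing4+/- Ing5-/- hearts averaged 13.1 ± 2.8 CPM, the Ing4+/- hearts 22.0 ± 4.99 CPM and the wild-type hearts 13.4 ± 2.4 CPM (SD, n = 4 each). In hearts with Ing5 the list median ran the other way, at 1.23 for Ing4+/- over wild-type hearts. Hoxb3, which patterns the hindbrain and pharyngeal region, had 2.94 to 5.30 CPM in Ing4+/- Ing5-/- hearts, against 4.46 to 12.1 CPM in Ing5-/- hearts (-0.90 ± 0.31, edgeR adjusted p = 0.639), and its fold change was -0.49 ± 0.26 without Ing5-/- 1. Of 18 proepicardial and septum transversum genes 11 were lower (median -0.09, or -0.12 without Ing5-/- 1). Among them, Lhx9 was at 2.82 to 5.29 CPM in Ing4+/- Ing5-/- hearts, against 4.39 to 18.4 CPM in Ing5-/- hearts. The value of 18.4 CPM was that of Ing5-/- 1. The Lhx9 fold change was -1.10 ± 0.32, and -0.49 ± 0.20 without that heart. Liver endoderm genes (8 tested of 16 listed) had a median of -0.87, which was -0.60 over the 9 tested without Ing5-/- 1 and 0.29 within litter 7. Their summed level averaged 79.8 ± 3.65 CPM in Ing4+/- Ing5-/- hearts (SD, n = 4), against 85.9 ± 20.2 CPM in Ing5-/- hearts (SD, n = 4), or 79.4 CPM in the Ing5-/- hearts without Ing5-/- 1. Albumin (Alb) had 1.29, 0.415, 0 and 0 CPM in Ing4+/- Ing5-/- hearts, against 14.6, 7.33, 0 and 0 CPM in Ing5-/- hearts. The 2 Ing5-/- hearts of litter 1 thus held most of the Alb reads. The part that neighbouring tissue had in these differences was not tested.

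The summed level of genes of neurons and neural crest was lower in every Ing4+/- Ing5-/- heart than in any Ing5-/- heart. Of 11 tested of 16 listed, 9 were lower, 3 of them with an unadjusted p under 0.05 (4.06% of all genes were), and the median was -0.24, or -0.30 without Ing5-/- 1. The median was -0.12 without Ing4+/- Ing5-/- 2 and -0.53 without Ing4+/- Ing5-/- 4. Their summed level was 50.3, 39.0, 47.3 and 59.4 CPM in Ing4+/- Ing5-/- hearts, against 74.6, 60.0, 70.7 and 61.8 CPM in Ing5-/- hearts, so the groups were separated by a narrow margin. An exact two-sided permutation test of this sum gave p = 0.0286, the smallest that 4 hearts a side allow, and 0.257 after adjustment over 9 cell type lists. Tubb3, a tubulin of neurons, had 15.6, 11.2, 14.1 and 16.2 CPM in Ing4+/- Ing5-/- hearts, against 28.0, 14.8, 24.9 and 22.0 CPM in Ing5-/- hearts (-0.65 ± 0.17, edgeR adjusted p = 0.468). Ngfr, a neurotrophin receptor of neural crest and epicardial cells, was at -1.19 ± 0.39, or -0.85 ± 0.38 without Ing5-/- 1. Of the other 8 lists tested in this way none had an adjusted p under 0.257, and 6 skeletal and pharyngeal muscle genes had a median of -0.35, or -0.13 without Ing5-/- 1.

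Cardiomyocyte genes had a median near 0, whose sign turned on Ing5-/- 1. Of 26 tested, 18 were higher with all hearts and 6 without Ing5-/- 1, and the median was 0.06 and -0.05. Ttn, the giant spring of the sarcomere, ran against most of the list with all hearts. It had 1070, 707, 722 and 647 CPM in Ing4+/- Ing5-/- hearts, against 1429, 1370, 1177 and 646 CPM in Ing5-/- hearts (-0.55 ± 0.20, edgeR adjusted p = 0.641). The Ttn fold change was -0.44 ± 0.20 without Ing5-/- 1 and -0.15 ± 0.17 with litter as a block. In hearts with Ing5 it was -0.45 ± 0.20 for Ing4+/- over wild-type hearts, so Ttn was lower there too (edgeR adjusted p = 0.956). In trabecular myocardium the 15 genes had a median of 0.03, and -0.03 without Ing5-/- 1.

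Endothelial and endocardial genes were higher in 22 of 23 cases, 11 of them with an unadjusted p under 0.05 (2.68% of all genes), with a median of 0.26. With Ing5-/- 1 left out, 21 were higher, 5 of them with such a p (2.02% of all genes), and the median was 0.15. Esam, an adhesion molecule of endothelial junctions, had 34.7, 39.9, 40.1 and 43.1 CPM in Ing4+/- Ing5-/- hearts, against 26.9, 33.4, 30.7 and 32.9 CPM in Ing5-/- hearts (0.35 ± 0.09, edgeR adjusted p = 0.468). Its groups did not overlap. Dll4, a Notch ligand of arterial endothelium and endocardium, had 15.7, 20.1, 19.7 and 24.5 CPM in Ing4+/- Ing5-/- hearts, against 6.70, 13.1, 16.8 and 14.7 CPM in Ing5-/- hearts. Its log2 fold change was 0.64 ± 0.20, or 0.43 ± 0.13 without Ing5-/- 1. Sox18 and Tie1, a transcription factor and a receptor of endothelium, were at 0.45 ± 0.15 and 0.26 ± 0.09. Without Ing5-/- 1 these 2 genes were at 0.32 ± 0.13 and 0.19 ± 0.09. The summed level of the list was 1803 to 2379 CPM in Ing4+/- Ing5-/- hearts, against 1465 to 2018 CPM in Ing5-/- hearts, with Ing5-/- 1 the lowest (exact permutation p = 0.200, adjusted 0.450). The part of the lower cardiomyocyte and endothelial shares of Ing5-/- 1 in these values was not tested.

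Of 25 genes of glycolysis and the response to low oxygen, 22 were higher, 6 with an unadjusted p under 0.05 (2.68% of all genes were), and the median was 0.22. Gapdh, among the 6, lies within 10 Mb of Ing4 (chr6:125161852-125166467). Without Ing5-/- 1, 4 were higher with such a p (2.02% of all genes) and the median was 0.11, and without Ing5-/- 3 it was 0.36. Egln3, an oxygen-sensing prolyl hydroxylase, had 24.8, 28.1, 23.6 and 30.9 CPM in Ing4+/- Ing5-/- hearts, against 17.4, 16.4, 25.5 and 16.6 CPM in Ing5-/- hearts (0.50 ± 0.14, edgeR adjusted p = 0.534). Only Ing5-/- 3 reached the Ing4+/- Ing5-/- range. Pdk1, a kinase that inhibits pyruvate dehydrogenase, had 439, 443, 342 and 433 CPM in Ing4+/- Ing5-/- hearts, against 209, 322, 424 and 326 CPM in Ing5-/- hearts. The Pdk1 log2 fold change was 0.37 ± 0.14, or 0.21 ± 0.10 without Ing5-/- 1. The spread of the list among Ing5-/- hearts was wide. Its summed level was 11770 to 13710 CPM in Ing4+/- Ing5-/- hearts, against 7860, 10810, 14460 and 10900 CPM in Ing5-/- hearts. Ing4+/- and wild-type hearts had 8673 to 9075 and 9124 to 10220 CPM.

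Blood cell genes varied widely between hearts of the same genotype. All 16 erythroid genes tested were higher with a median of 0.74, but within litter 7 the median was -2.01, without Ing4+/- Ing5-/- 2 it was 0.07 and without Ing5-/- 4 it was 1.71. Haemoglobin genes took 1.60, 4.68, 1.82 and 0.768% of reads in Ing4+/- Ing5-/- hearts, against 1.06, 0.594, 0.548 and 3.24% in Ing5-/- hearts (exact two-sided permutation p = 0.486). The 2 Xist-high hearts had the highest share on each side. Macrophage genes were higher in 14 of 18 cases with a median of 0.51, which was 0.81 without Ing5-/- 1 and 0.25 without Ing5-/- 4. Their summed level was 70.6, 99.5, 108 and 81.2 CPM in Ing4+/- Ing5-/- hearts, against 103, 95.8, 43.5 and 44.4 CPM in Ing5-/- hearts. The 2 Ing5-/- hearts of litter 1 were thus as high as the Ing4+/- Ing5-/- hearts, and the other 2 matched the Ing4+/- and wild-type range of 36.4 to 52.3 CPM. Spi1, a transcription factor of myeloid cells, had 2.24 to 3.61 CPM in Ing4+/- Ing5-/- hearts, against 0.555 to 2.57 CPM in Ing5-/- hearts. Within litter 1 the median of the macrophage list was -0.59 and within litter 7 it was 1.05.

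**Figure D5:**
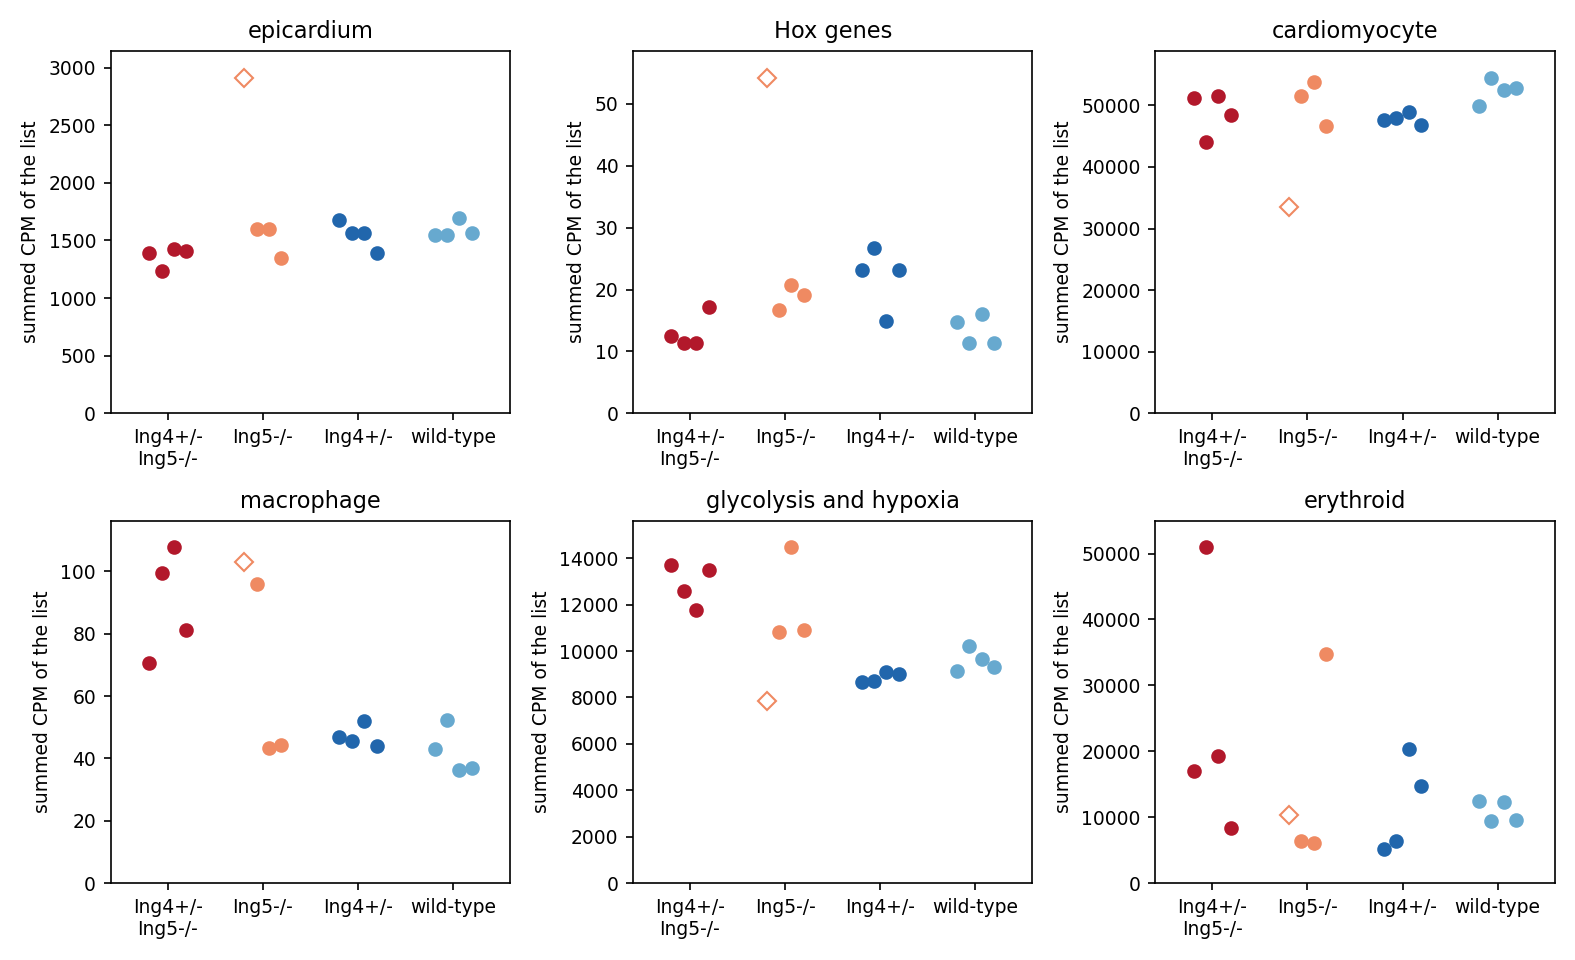
Summed CPM of 6 gene lists (vertical axes, from 0) in each of the 16 hearts by genotype, with Ing5-/- 1 as an open diamond. Ing5-/- 1 was the highest heart for epicardial (2914 CPM) and Hox genes (54.3 CPM) and the lowest for cardiomyocyte genes (33450 CPM), and the macrophage and erythroid lists varied widely within the Ing5-/- hearts.

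Genes of the complexes that hold ING4 and ING5 were centred on 0. Of 17 subunits tested, 9 were higher and 8 lower, 1 had an unadjusted p under 0.05 (Ing4), and the median was 0.00. Ing1, a relative found in histone deacetylase complexes, had 55.1 to 60.1 CPM in Ing4+/- Ing5-/- hearts, against 48.6 to 57.3 CPM in Ing5-/- hearts (0.09 ± 0.06). Brd1, a scaffold of KAT6 and KAT7 complexes, had 95.6 to 105 CPM in Ing4+/- Ing5-/- hearts, against 88.9 to 93.7 CPM in Ing5-/- hearts (0.10 ± 0.05, edgeR adjusted p = 0.757). Its groups did not overlap, though the difference was small.

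The other lists had medians within 0.16 of 0. Retinoic acid genes were lower in 14 of 17 cases (median -0.16), with the retinoic acid carrier Crabp2 at -1.09 ± 0.39. BMP, TGF-beta, FGF and WNT genes had 17 higher and 15 lower (median 0.01), among them the growth factor Tgfb1 at 0.40 ± 0.10 and Wnt2b at -0.96 ± 0.29, or -0.51 ± 0.22 without Ing5-/- 1. The median was -0.05 for 24 extracellular matrix genes, -0.04 for 15 cushion mesenchyme genes, 0.00 for 26 oxidative phosphorylation genes and -0.08 for 33 ribosomal protein genes. It was -0.02 for 26 DNA replication genes, -0.05 for 25 mitosis genes, 0.00 for 24 p53 targets and 0.10 for 18 immediate early genes. Among these, Plk2, a kinase that p53 induces, was at 0.33 ± 0.10 and Gins2, a subunit of the replicative helicase, at -0.34 ± 0.09, neither of them called. Without Ing5-/- 1, Plk2 was at 0.27 ± 0.10 and Gins2 at -0.24 ± 0.08. Of the 26 oxidative phosphorylation genes, 5 were lower and 0 higher with an unadjusted p under 0.05 (4.06% of all genes were lower so). With Ing5-/- 1 left out, 23 of the 26 were lower, 2 of them with such a p (2.2% of all genes), and the median was -0.05.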

How the data were processed

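RNA was measured in 16 hearts by sequencing of total RNA purified with a column kit, in stranded libraries, per the labels. The values are raw counts of reads per gene as the authors deposited them, in a table of the series and in 16 single-sample tables that were equal to it. The gene length in bases that the authors deposited beside the counts (other) was not used. Tools named per the submitters' processing notes are bcl2fastq and featureCounts, with the build mm10. No aligner, annotation or strand setting of the counting is stated in the labels, so reads of overlapping and antisense genes cannot be told apart. Of 27179 gene IDs, 25275 matched a symbol, and the 1904 others took 2.08% of reads.

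Tests were run with edgeR 4.0.16, with limma 3.58.1 and DESeq2 1.42.0 as alternatives (R 4.3.3). Genes with low counts were removed by the edgeR filter (15785 kept, 11394 removed) and libraries scaled by TMM (factors 0.967 to 1.08). The main test was edgeR's quasi-likelihood F test with 1 mean per genotype, on 16 libraries and again on 15 without Ing5-/- 1. Calls were made at 0.05 after Benjamini-Hochberg adjustment across every gene tested. The SE is the log2 fold change divided by the square root of F, and ratios within a litter used 0.1 CPM as a pseudocount. Total counts were 19753100 to 35664331 per library. Within each of the 2 genotypes compared, the variance between 2 libraries was 10.7 to 102 times that of counting error alone (chi-square per degree of freedom). The hearts are separate embryos, with litters shared. The procedure was tested on simulated counts.

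The comparison, gene lists and tests were chosen with earlier results of these data known. Genes named were Ing4, Ing5 and 5 epicardial genes. In each direction and each fit the 10 called genes with the largest change were added, filled to 10 by the smallest p. For these, the mean was at least 1 CPM and the groups did not overlap. Predicted genes, Xist, Y-linked genes, Ing4 and genes within 10 Mb of it were left out of them. Up to 4 members of each list by p and the 4 genes with the smallest p in the interaction were also named. The text describes a part of these genes, and 1 list member among them is not reported here. Alternatives were DESeq2, limma-voom, DESeq2 size factors, 2 other filters, only the groups compared, litter or replicate number as a block, a Y-linked covariate, haemoglobin genes left out, and each library left out. Promoter sequences are from RefSeq (GRCm38.p6).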

Additional observations from a re-analysis of the deposited data

Results flagged for a closer look

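A value was marked where, among the 4 hearts of a genotype, the highest or lowest heart was separated from the others by more than Dixon's 95% limit. Of 240 groups of 4 examined, 26 were marked, and chance marks about 1 in 20.

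Ing5-/- 1 accounted for 11 of them. Its epicardial and neighbouring-tissue genes were high, with Lhx9 at 18.4 CPM (others 4.39 to 6.66), Pdgfra at 113 CPM, Lama1 at 35.4 CPM, Hoxa5 at 8.001 CPM, Lhx2 at 4.65 CPM and Tcf15 at 2.15 CPM. Lsm3 (63.8 CPM) and the replication factor gene Rfc3 (50.9 CPM) were high too. The muscle genes Actn2 (449 CPM, others 915 to 1007) and Ldb3 (335 CPM) were low, as was Myo16 (9.01 CPM). Ing5-/- 3 was high for Dpp6 (5.19 CPM, others 3.58 to 3.63) and for the glycolysis and low-oxygen genes Egln3 (25.5 CPM), Aldoc (17.3 CPM) and Gapdh (92.5 CPM). Ing5-/- 4 was high for the red cell gene Rhag (45.8 CPM), and Ing5-/- 2 low for Brd1 (88.9 CPM).

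Ing4+/- Ing5-/- 2 was high for Clybl (47.8 CPM), Ing5 (25.1 CPM) and Tfrc, the transferrin receptor of red cell precursors (834 CPM, others 304 to 348). Ing4+/- Ing5-/- 4 was high for Scube1 (32.8 CPM) and Sox18 (37.1 CPM) and low for Dusp1 (21.2 CPM). Ing4+/- Ing5-/- 3 was low for Pdk1 (341.8 CPM) and high for the natriuretic peptide gene Nppb (194 CPM), and Ing4+/- Ing5-/- 1 low for the basement membrane gene Nid1 (206 CPM).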

How the results depend on the processing

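With all hearts, 1 gene was called under DESeq2 size factors, both other filters, limma-voom, the Y-linked covariate and without haemoglobin genes, 19 by DESeq2, and 0 with litter as a block or only the groups compared. Leaving out single libraries gave 1 to 2 genes: Vwf was added without Ing4+/- Ing5-/- 1, Tnni2 without Ing5-/- 3 and Ing4 without wild-type 2. On these removals Dpp6 was at a log2 fold change of 1.47 to 1.85 (adjusted p = 0.00134 to 0.0188). Without Ing5-/- 1 the count was 8 by DESeq2, 0 with litter as a block or only the groups compared, and 0 to 2 on leaving out another library, with 0 when Ing5-/- 2 or Ing5-/- 4 was also left out. The removals of Ing4+/- and wild-type libraries there were chosen after seeing the data. For Ing4+/- against wild-type hearts DESeq2 called 3 and single removals gave 0 to 1, and for the interaction these were 7 and 0 to 1. Ing4 was at -0.57 by DESeq2 (adjusted p = 0.0163) and at -0.64 to -0.48 on single removals. Of the named genes, Hbb-bs (-0.032) and Bmp10 (-0.013) reversed with litter as a block, and Ldb3 and Tcf15 without Ing5-/- 1 (-0.0038 to 0.207 and -0.588 to 0.041 over single removals), none of them called. Genes higher made up 39.8% of those with an unadjusted p under 0.05, 47.8% without Ing5-/- 1 and 49.2% with litter as a block. The cause of these moves was not tested.

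Hearts with the same replicate number did not deviate together (correlations of -0.22, -0.18, -0.07 and -7.18e-05), so the numbers were not taken as pairs. With a replicate block 1 gene was called with all hearts (Dpp6, log2 fold change 1.69, adjusted p = 0.0131). That block gave 0 genes without Ing5-/- 1, and 0 for Ing4+/- against wild-type hearts and for the interaction. The replicate block gave Ing4 at -0.57 (adjusted p = 0.388). At these depths a gene at 0 CPM, such as Alb in 4 of the 8 hearts compared, was not detectable, which does not show that it is absent.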

Other observations

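Some genes outside those above were called by an alternative and were chosen after their values were seen. DESeq2 called 6 of them. Atf5, a transcription factor of the mitochondrial stress response, had 43.7, 90.9, 43.7 and 41.9 CPM in Ing4+/- Ing5-/- hearts, against 27.7, 34.2, 26.0 and 35.7 CPM in Ing5-/- hearts, with Ing4+/- Ing5-/- 2 far above the rest (log2 fold change 0.83 ± 0.20, DESeq2 adjusted p = 0.0237, edgeR 0.353). Notch4, a Notch receptor of endothelium, had 26.4, 36.8, 32.4 and 38.8 CPM in Ing4+/- Ing5-/- hearts, against 19.4, 26.5, 25.8 and 23.0 CPM in Ing5-/- hearts (0.51 ± 0.12, DESeq2 adjusted p = 0.0340, edgeR 0.348). A2m, a protease inhibitor, had a log2 fold change of 1.07 ± 0.24. Lin28a, an RNA-binding protein of early embryos, was at -0.83 ± 0.19, Nrp2, a receptor of semaphorins and VEGF, at -0.58 ± 0.14, and the small RNA Bc1 at -2.29 ± 0.52 with under 2 CPM in every heart.

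Vwf, the von Willebrand factor of endothelium, had 75.6, 147, 126 and 134 CPM in Ing4+/- Ing5-/- hearts, against 66.97, 96.0, 77.9 and 84.2 CPM in Ing5-/- hearts. It was not called with all hearts (0.57 ± 0.15, edgeR adjusted p = 0.468) and was called without Ing4+/- Ing5-/- 1, the low heart of its group (0.74, adjusted p = 0.00683). Hearts with Ing5 had 56.0 to 64.3 CPM in Ing4+/- and 59.6 to 67.8 CPM in wild-type, below every Ing4+/- Ing5-/- heart.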
